A study of Mus musculus with 12 samples.

Results

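Macroautophagy wraps cytoplasm in a double membrane and delivers it to lysosomes, and 10 genes of its early steps and of its cargo receptors were described in mouse cortical neuronal cultures under lasting interferon-gamma exposure. The genes were taken by symbol: Ulk1, Rb1cc1 and Becn1 of the initiation complexes, Atg5 and Atg7 of the conjugation machinery, Map1lc3a, Map1lc3b and Gabarapl1 of the ATG8 family, and the cargo receptor genes Sqstm1 and Nbr1. All 10 had a row among the 43629 gene identifiers of the count table, and all 10 passed the filter on low counts. Each had between 267 and 14172 counts in a library.

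As background, the ULK1 kinase complex starts an autophagosome, and the class III phosphatidylinositol 3-kinase (PI3K) complex, which holds Beclin 1, marks the growing membrane with a lipid. ATG7 and ATG5 belong to the ubiquitin-like cascade that couples ATG8 proteins (the LC3 and GABARAP families) to that membrane. Cargo receptors such as p62 (from Sqstm1) and NBR1 bind ubiquitinated cargo on one side and ATG8 proteins on the other. Neurons do not divide and cannot dilute damaged proteins, and loss of Atg5 or Atg7 in the mouse nervous system leads to neurodegeneration.

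The 12 libraries of poly(A) RNA came from neuronal cultures of mouse cortex, 6 labelled IFNG and 6 labelled Control. IFNG cultures carried a lentiviral Ifng overexpression construct, given at day 7 in vitro, with harvest 10 days later. All 12 samples carry the same protocol text, so what the Control cultures received is not known from the labels; the promoter of the construct and the strain and age of the mice are not given either. Nothing in the labels ties a sample to its own culture or animal, so p-values measure only how far these samples spread, and that spread may be technical.

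The IFNG libraries held 13875435 to 34239380 counts and the Control libraries 14408343 to 20299507. Ifng itself was at 4.98 to 17.9 CPM (counts scaled to library totals with TMM factors) in the IFNG libraries, against 0 to 0.170 CPM in the Control libraries, so every label matched its transgene. Markers of other cell types moved with the groups. All 11 tested of 12 astrocyte markers rose (S100b had too few counts), and their sum ran from 4456 to 7544 CPM in IFNG and 2662 to 2993 CPM in Control cultures. Of 10 neuronal markers 4 fell (Rbfox3, Snap25, Syn1 and Stmn2), with a summed level of 3666 to 4830 CPM in IFNG and 4991 to 5714 CPM in Control cultures. Of 8 oligodendrocyte lineage markers Olig2 and Pdgfra fell. The sum of 9 microglial markers ran from 13.8 to 22.9 CPM in IFNG and from 8.77 to 15.99 CPM in Control libraries, and P2ry12 rose among the 3 tested. The sum of 7 endothelial and mural markers ran from 13.1 to 36.0 CPM in IFNG and from 11.5 to 19.9 CPM in Control libraries, Pdgfrb rose among the 4 tested, and Cldn5 had no count in any library. In such bulk samples fewer cells of a type and less RNA per cell cannot be told apart, and the part of these markers in the results on autophagy genes was not tested.

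The comparison of IFNG with Control asks what lasting interferon-gamma exposure does to the cultures as a whole, neurons and other cells together. Among the 10 genes, Rb1cc1 and Becn1 fell, to folds of 0.773 and 0.837, and none rose. The test was edgeR's quasi-likelihood F-test, and p-values were adjusted by the Benjamini-Hochberg method across the 15241 genes that passed the filter. Of those genes 24.1% were called, 14.3% higher and 9.79% lower in IFNG, and a share of 2 in 10 is near that background. Of all calls 59.4% were higher in IFNG, a share that became 79.8% on totals from which the genes that rose are removed. Those totals leave out the genes called higher in these same data and keep those called lower, so they raise fold changes by construction. The median log2 fold change over all genes was 0.095 on them. At an unadjusted p under 0.05 there were 3 lower and 0 higher of the 10, and DESeq2 and limma-voom each called the same 2 genes lower and 0 higher. The median log2 fold change of the 10 genes was -0.14, against -0.02 over all genes tested. The largest of the 10 changes, in Rb1cc1, was larger in absolute log2 fold change than 67.2% of all genes, and the smallest, in Map1lc3b, larger than 4.68%.

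**Figure D1:**
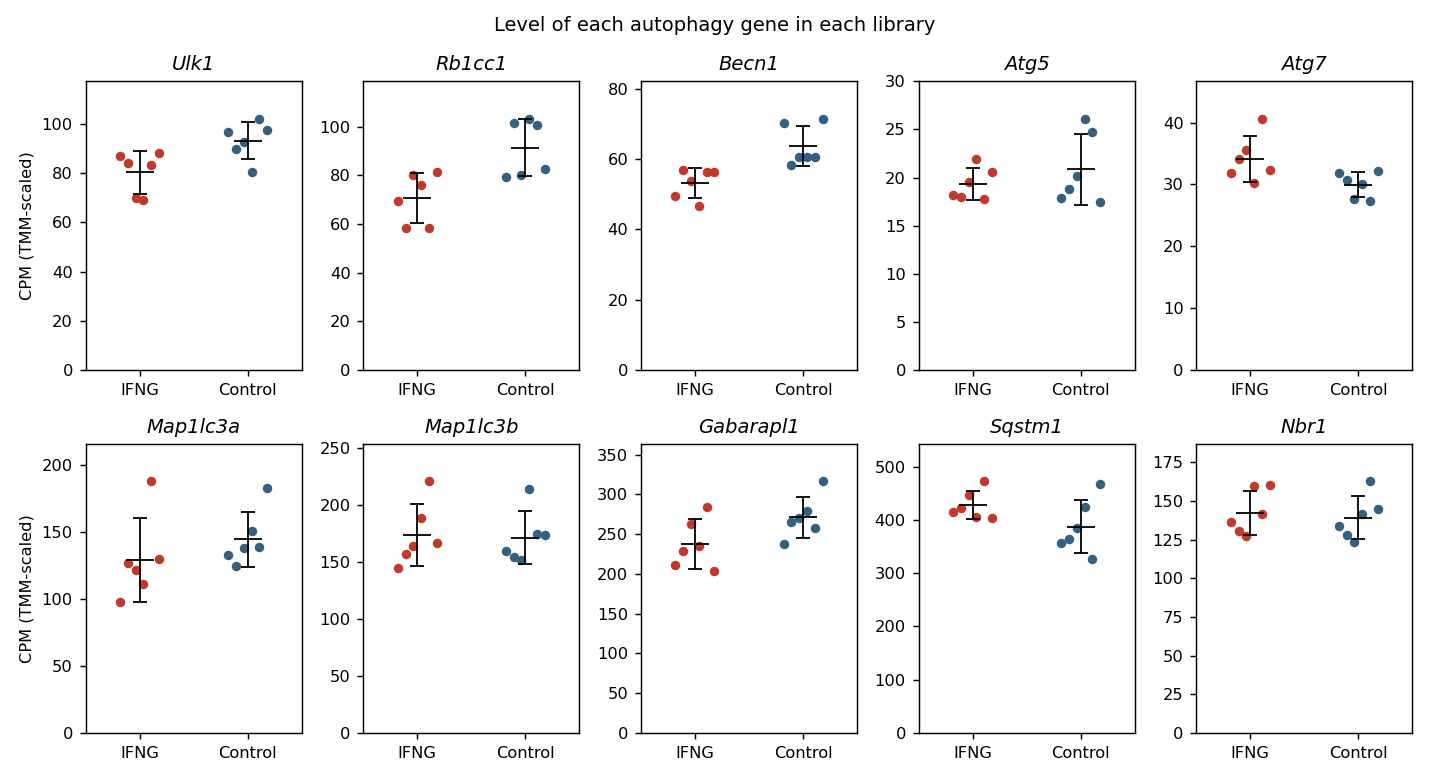
Level of each of the 10 genes in CPM (linear axis from 0) in the 6 IFNG and 6 Control libraries; points are libraries, and the bar with its whiskers is the mean ± SD. Becn1 is the gene whose groups do not overlap, with all IFNG libraries at or below 56.8 CPM and all Control libraries at or above 58.4 CPM.

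**Figure D2:**
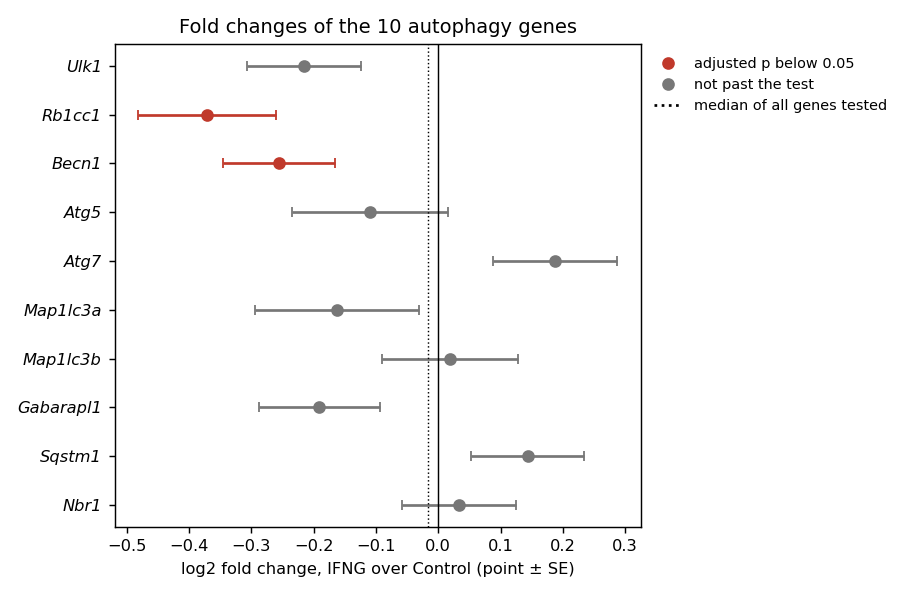
Log2 fold change of each gene, IFNG over Control, with its standard error (SE); red marks an adjusted p below 0.05 and the dotted line the median of all genes tested. Rb1cc1 at -0.37 and Becn1 at -0.26 are the genes past the test, and the other 8 lie between -0.22 and 0.19.

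The initiation genes held both changes. Rb1cc1 (ENSMUSG00000025907, GRCm38 chr1:6206197-6276648, plus strand) encodes FIP200, the scaffold of the ULK1 complex. Its lowest, median and highest levels were 58.2, 72.7 and 81.4 CPM in IFNG libraries, against 79.1, 91.8 and 103 CPM in Control libraries. All 6 IFNG libraries lay under the Control median and 4 of them under every Control library, with the 2 highest IFNG libraries inside the Control range. The mean was 70.6 ± 10.4 CPM in IFNG and 91.3 ± 11.7 CPM in Control (SD, n = 6 each), which gives -0.37 ± 0.11 in log2 fold change (SE, adjusted p = 0.0179 in edgeR) or a fold of 0.773. Scaled on library totals from which the genes that rose are removed, it was -0.26 and no longer called (adjusted p = 0.0836). Set against the median of all genes it was -0.36 on those totals and -0.36 with TMM. The call was also lost without IFNG 2, the most deeply sequenced library and the one with the lowest Rb1cc1 level, at -0.31 (adjusted p = 0.0601). It was lost, too, without Control 4 and IFNG 5 together, at -0.27 (adjusted p = 0.0676). An antisense gene, 4732440D04Rik, shares 558 exon bases with Rb1cc1 and held 1082 counts over all libraries. The strand setting of the counting is not given in the sources used here, so reads of that stretch could belong to either gene.

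Becn1 (ENSMUSG00000035086, chr11:101285952-101302286, minus strand) encodes Beclin 1, a core subunit of the class III PI3K complexes. Its levels were 46.6, 55.0 and 56.8 CPM (lowest, median, highest) in IFNG libraries and 58.4, 60.5 and 71.4 CPM in Control libraries. The groups did not overlap, which was so for 12.8% of all genes tested, and the gap between them was small: 4 of the Control libraries lay between 58.4 and 60.6 CPM. The mean was 53.2 ± 4.26 CPM in IFNG and 63.6 ± 5.66 CPM in Control (SD, n = 6 each), and the log2 fold change was -0.26 ± 0.090 (adjusted p = 0.0434 in edgeR). This call sits at the threshold: leaving out any of 10 of the 12 libraries (all but Control 2 and IFNG 5) ended it, with adjusted p-values from 0.0534 to 0.128 and log2 fold changes from -0.27 to -0.21. With the replicate number as a block the log2 fold change was -0.26 (adjusted p = 0.0595), and without a low-count filter -0.23 (adjusted p = 0.147). On totals from which the genes that rose are removed it was -0.15 (adjusted p = 0.279). Set against the median of all genes it was -0.24 on those totals and -0.24 with TMM. Cntd1 shares 3104 exon bases with Becn1 on the opposite strand, and held 46 counts over all libraries. Of the 50-base stretches of Becn1 transcripts 36.8% also occurred in transcripts of Cntd1, Ifnar1, Gm43773 or Mrps17, so part of its reads is uncertain. That share includes the long overlap with Cntd1, and the part of each gene in it was not separated. Ifnar1 held 17283 counts and Mrps17 8398 over all libraries.

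Ulk1 (ENSMUSG00000029512, chr5:110784488-110810097, minus strand), the kinase gene, did not pass. Its levels were 69.1, 83.8 and 87.96 CPM in IFNG libraries and 80.6, 94.6 and 102 CPM in Control libraries. All Control libraries but Control 4 lay above every IFNG library. The log2 fold change was -0.22 ± 0.091 (adjusted p = 0.0952 in edgeR). Scaled on plain library totals, without TMM factors, it was -0.26 (adjusted p = 0.0430), and without Control 4 and IFNG 5 together -0.25 (adjusted p = 0.0396).

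The partners of these genes came from lists of 74 further autophagy genes, all of which were tested: 7 rose and 7 fell, or 18.9%, and their median was -0.03 in log2 fold change, beside 24.1% called over all genes (14.3% higher, 9.79% lower). The even split depends on the scaling. On totals from which the genes that rose are removed, which raise fold changes by construction, 12 rose and 4 fell. On plain library totals 6 rose and 9 fell. Without IFNG 2 the numbers were 6 and 4. Among 3 further genes of the ULK complexes, Ulk2 encodes the other ULK kinase. It averaged 117 ± 14.8 CPM in IFNG and 167 ± 15.9 CPM in Control, and fell by 0.51 ± 0.097 on the log2 scale (adjusted p = 0.00049 in edgeR). Atg13, the regulatory subunit gene, averaged 35.7 ± 6.68 CPM in IFNG and 49.7 ± 4.26 CPM in Control, and fell by 0.48 ± 0.12 (adjusted p = 0.0055). For both the groups did not overlap, and both kept their call under all 21 alternatives. Atg101 stood at -0.23 ± 0.16 (adjusted p = 0.332 in edgeR). Of the 5 listed ULK complex genes, with both kinase genes counted, 3 fell (Rb1cc1, Ulk2 and Atg13) and 0 rose in edgeR, where 9.79% of all genes fell. DESeq2 and limma-voom also gave 3 and 0. At an unadjusted p under 0.05 it was 4 and 0 in each of the 3 tools. The number that fell was 2 without IFNG 2, 2 on totals from which the genes that rose are removed and 4 on plain library totals, with 0 higher each time. These are libraries where 4 of 10 neuronal markers fell and all 11 astrocyte markers rose.

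The genes around Becn1 and of membrane supply held no call. None of 7 further class III PI3K genes passed in edgeR, DESeq2 or limma-voom, and 2, 2 and 3 of them were lower and 0 higher at an unadjusted p under 0.05. Rubcn, whose protein inhibits the complex, was the most abundant of them, at 99.8 ± 16.8 CPM in IFNG, against 116 ± 6.33 CPM in Control cultures (log2 fold change -0.21 ± 0.11, adjusted p = 0.165). Scaled on plain library totals, Pik3c3, the lipid kinase gene, was called lower (it and the WIPI and ATG2 genes below are named after their values were seen). None of 10 genes that supply or shape the membrane (ATG9, ATG2 and WIPI genes, Vmp1 and Tmem41b) passed in the 3 tools either, with 2, 2 and 3 lower and 0 higher at an unadjusted p under 0.05. Vmp1 was the most abundant, at 112 ± 9.33 CPM in IFNG, against 112 ± 17.2 CPM in Control. Wdr45, of the WIPI family, was called lower without Control 2 or IFNG 5, on plain library totals and with a replicate block. Wdr45 was also called lower without Control 4 and IFNG 5 together, and Atg2b without IFNG 6.

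**Figure D3:**
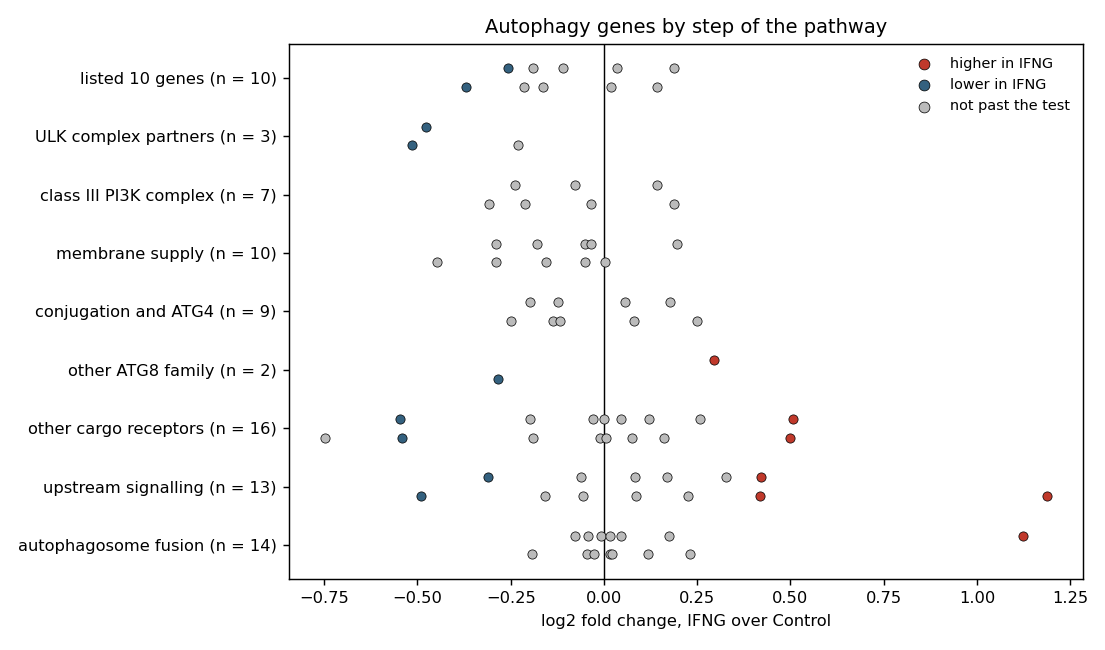
Log2 fold change, IFNG over Control, of the 10 genes and of 74 further autophagy genes by step of the pathway; each point is a gene, red and blue mark genes past the test, and vertical offsets within a row carry no meaning. Ulk2 and Atg13, the called further genes of the ULK complexes, lie on the lower side. The class III PI3K, membrane supply and conjugation genes are grey throughout. The top line holds the 10 genes themselves.

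The conjugation genes held no call, and for Atg5 and Atg7 edgeR, DESeq2 and limma-voom gave 0 at an unadjusted p under 0.05 too. Atg7 (ENSMUSG00000030314, chr6:114643097-114860614, plus strand), the gene of the E1-like activating enzyme, had levels of 30.3, 33.2 and 40.6 CPM (lowest, median, highest) in IFNG libraries and 27.3, 30.4 and 32.2 CPM in Control libraries. 4 IFNG libraries lay above every Control library, and the other 2 lay inside the Control range. Its log2 fold change was 0.19 ± 0.099 (adjusted p = 0.189 in edgeR), and it passed under 1 of 21 alternatives, on totals from which the genes that rose are removed, at 0.30 (adjusted p = 0.0384). Atg5 (ENSMUSG00000038160, chr10:44268358-44364291, plus strand), whose product joins ATG12 in the E3-like complex, was the least abundant of the 10 genes in CPM. Its levels were 17.8, 18.8 and 21.9 CPM in IFNG libraries and 17.4, 19.5 and 26.1 CPM in Control libraries, so the IFNG range lay inside the Control range. The log2 fold change was -0.11 ± 0.13 (adjusted p = 0.576 in edgeR). Of 9 further conjugation and ATG4 protease genes none passed in edgeR, DESeq2 or limma-voom, with 1, 1 and 2 lower and 0 higher at an unadjusted p under 0.05. Atg12 was the most abundant of them, at 79.8 ± 7.28 CPM in IFNG, against 87.7 ± 5.59 CPM in Control (SD, n = 6 each).

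The ATG8 family genes are paralogs, and their coding ends are shown for the site at which the proteins are processed and for how alike the genes are. ATG4 proteases cut each protein after a glycine near its end, and that glycine is then joined to the membrane lipid. The last 75 coding bases of the first annotated transcript of each gene (GENCODE M21, GRCm38, all on the plus strand) follow, in lower case with the codon of that glycine in capitals.
Map1lc3a (chr2:155277560-155277634): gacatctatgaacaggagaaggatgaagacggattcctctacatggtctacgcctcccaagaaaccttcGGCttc
Map1lc3b (chr8:121596693-121596767): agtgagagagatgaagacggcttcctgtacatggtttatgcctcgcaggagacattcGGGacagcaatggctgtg
Gabarapl1 (in 2 exons between chr6:129538677 and 129541164): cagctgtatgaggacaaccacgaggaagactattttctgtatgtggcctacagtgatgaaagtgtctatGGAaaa
Gabarap (in 2 exons between chr11:69992689 and 69994521): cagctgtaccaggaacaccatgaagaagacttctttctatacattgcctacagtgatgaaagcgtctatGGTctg
Gabarapl2 (chr8:111952328-111952402): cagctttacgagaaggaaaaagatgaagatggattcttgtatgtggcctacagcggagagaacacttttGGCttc
The glycine is codon 120 in both LC3 genes, followed by 1 codon in Map1lc3a and 5 in Map1lc3b, and codon 116 in the 3 GABARAP genes, each followed by 1 codon. Coding identity was 74.7% between Map1lc3a and Map1lc3b, 74.6% between Gabarapl1 and Gabarap, and 50.5% between Map1lc3b and Gabarapl1. The longest stretch that transcripts of any 2 of the 5 genes had in common was 17 bases. Of the 50-base stretches of Map1lc3b transcripts 6.01% also occurred in transcripts of Gm6055, Gm12727, Gm6054 or Mpv17l. These held 138, 3, 34 and 11055 counts over all libraries, so part of the Map1lc3b reads is uncertain. On the opposite strand Map1lc3b shares 58 exon bases with Zcchc14, which held 38819 counts.

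None of the 3 ATG8 genes among the 10 passed in edgeR, DESeq2 or limma-voom, and 0 had an unadjusted p under 0.05 in any of them. Map1lc3a (ENSMUSG00000027602, chr2:155276297-155278073, plus strand) had levels of 97.4, 124 and 188 CPM in IFNG libraries and 125, 138 and 183 CPM in Control libraries. 3 IFNG libraries lay below every Control library, while IFNG 5 lay above them all. The log2 fold change was -0.16 ± 0.13 (adjusted p = 0.411 in edgeR). Without IFNG 5 it was -0.29 (adjusted p = 0.0451), the 1 of 21 alternatives under which Map1lc3a passed. Without Control 4 and IFNG 5 together it was -0.28 and not called (adjusted p = 0.0612), and without Control 6 it was -0.070. Map1lc3b (ENSMUSG00000031812, chr8:121590361-121598760, plus strand), the source of the LC3B protein used as an autophagosome marker, had levels of 145, 166 and 221 CPM in IFNG and 152, 167 and 214 CPM in Control cultures. The groups overlapped almost fully, with a log2 fold change of 0.02 ± 0.11 (adjusted p = 0.928). Gabarapl1 (ENSMUSG00000030161, chr6:129533160-129542346, plus strand) had levels of 203, 232 and 285 CPM in IFNG and 238, 268 and 316 CPM in Control cultures. 4 IFNG libraries lay below every Control library, and the log2 fold change was -0.19 ± 0.097 (adjusted p = 0.170 in edgeR). The noncoding transcript 1700101I11Rik shares 570 exon bases with Gabarapl1 on the opposite strand and held 171 counts over all libraries.

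The other 2 family genes moved in opposite directions. Gabarap averaged 145 ± 16.5 CPM in IFNG and 118 ± 11.7 CPM in Control, and rose by 0.30 ± 0.093 in log2 terms (adjusted p = 0.0253). Gabarapl2 averaged 75.5 ± 9.22 CPM in IFNG and 91.9 ± 8.43 CPM in Control, and fell by 0.28 ± 0.096 (adjusted p = 0.0370). The Gabarap call was lost without Control 1, Control 2 or Control 3 (adjusted p = 0.0562 to 0.0668) and on plain library totals (adjusted p = 0.0534). The Gabarapl2 call was lost without any of 8 libraries, which are all but Control 1, Control 3, IFNG 3 and IFNG 5 (adjusted p = 0.0565 to 0.111), on totals from which the genes that rose are removed (-0.17, adjusted p = 0.224) and without a low-count filter (-0.26, adjusted p = 0.0974).

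The cargo receptor genes among the 10 were abundant and did not pass in edgeR, DESeq2 or limma-voom, with 0 at an unadjusted p under 0.05 in each. Sqstm1 (ENSMUSG00000015837, chr11:50199366-50210827, minus strand) had the highest CPM of the 10 and lay above 98.1% of all tested genes in mean log2 CPM. Its levels were 404, 419 and 472 CPM in IFNG libraries and 327, 375 and 467 CPM in Control libraries. All 6 IFNG libraries lay above the Control median, and 4 Control libraries lay below every IFNG library, but Control 4 and Control 6 reached into the IFNG range. The mean was 428 ± 26.9 CPM in IFNG and 388 ± 50.4 CPM in Control (SD, n = 6 each), and the log2 fold change 0.14 ± 0.091 (adjusted p = 0.280 in edgeR). Over the 21 alternatives it ran from 0.10 to 0.26, with the smallest adjusted p at 0.0523. Mrnip shares 580 exon bases with Sqstm1 on the opposite strand and held 537 counts over all libraries. Nbr1 (ENSMUSG00000017119, chr11:101552149-101581951, plus strand) had levels of 127, 139 and 160 CPM in IFNG libraries and 124, 138 and 163 CPM in Control libraries. The IFNG range lay inside the Control range, with a log2 fold change of 0.03 ± 0.091 (adjusted p = 0.835).

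Further cargo receptor genes, among them receptors for single organelles, moved both ways. Of the 16 further cargo receptor genes listed 2 rose, 2 fell and 12 were not called, and their median was 0.00 in log2 fold change. That is 25% called, beside 24.1% over all genes (14.3% higher, 9.79% lower). The mitophagy receptor gene Bnip3 averaged 94.4 ± 16.4 CPM in IFNG and 66.8 ± 13.6 CPM in Control and rose by 0.50 ± 0.13 (adjusted p = 0.00896 in edgeR). Its paralog Bnip3l averaged 58.7 ± 7.26 CPM in IFNG and 85.8 ± 10.3 CPM in Control and fell by 0.55 ± 0.10 (adjusted p = 0.00049 in edgeR). Fundc1, another receptor of mitochondria, averaged 30.1 ± 3.25 CPM in IFNG and 21.2 ± 3.40 CPM in Control and rose by 0.51 ± 0.12 (adjusted p = 0.00367). Retreg1, a receptor of the endoplasmic reticulum, averaged 39.1 ± 6.76 CPM in IFNG and 56.8 ± 7.46 CPM in Control and fell by 0.54 ± 0.12 (adjusted p = 0.00247). Each of these 4 kept its call under all 21 alternatives. Rtn3, a receptor of the tubular endoplasmic reticulum, was the most abundant without a call, at 1220 ± 140.2 CPM in IFNG, against 1400 ± 184 CPM in Control (log2 fold change -0.20 ± 0.0999, adjusted p = 0.166). Of the 50-base stretches of Bnip3 transcripts 47.2% and of Bnip3l transcripts 20.8% also occur in transcripts of other genes, so part of their reads is uncertain.

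Promoter windows were looked up because interferon signalling acts through promoter sites known by name as GAS and ISRE. RefSeq windows of 300 bases around a start (GRCm38.p6) matched 7 of the 10 genes with 8 windows, and the motifs searched, on both strands, were TTCNNNGAA (GAS), GAAA, any 2 bases and GAAA (ISRE), CACGTG (the core of the CLEAR element bound by TFEB) and TGACNNNGC (the core of the antioxidant response element). Windows were matched for Ulk1, Atg5, Atg7, Map1lc3b, Gabarapl1, Sqstm1 and Nbr1. Rb1cc1 and Becn1, the genes past the test, had no window, and neither had Map1lc3a. Matches could therefore fall only in genes without a call, and no contrast with the called genes can be drawn. GAS letters occurred in 2 of the 8 windows (Gabarapl1 and Nbr1), against 8.30% of all 32851 windows, and ISRE letters in 1 (Nbr1), against 3.44%. Both Nbr1 matches lay in the window printed below. The other Nbr1 window (chr11:101551857-101552156), which covers the annotated gene start, held neither. CACGTG occurred in the windows of Atg5 and Atg7, against 7.15%, and the antioxidant core in that of Map1lc3b, against 12.4%. The Atg7 window (chr6:114670846-114671145) lies inside the gene and does not cover its annotated start at 114643097. The 2 windows with GAS letters are shown. Capitals mark the GAS letters in both and, in Nbr1, also the ISRE letters nearer the start.
Gabarapl1 (chr6:129532942-129533241, plus strand): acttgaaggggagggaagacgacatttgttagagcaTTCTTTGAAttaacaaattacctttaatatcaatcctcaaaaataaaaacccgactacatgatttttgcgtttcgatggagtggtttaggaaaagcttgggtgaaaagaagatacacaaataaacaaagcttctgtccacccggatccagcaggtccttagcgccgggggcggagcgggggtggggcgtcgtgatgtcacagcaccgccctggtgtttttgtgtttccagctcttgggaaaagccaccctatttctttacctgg
Nbr1 (chr11:101552404-101552703, plus strand): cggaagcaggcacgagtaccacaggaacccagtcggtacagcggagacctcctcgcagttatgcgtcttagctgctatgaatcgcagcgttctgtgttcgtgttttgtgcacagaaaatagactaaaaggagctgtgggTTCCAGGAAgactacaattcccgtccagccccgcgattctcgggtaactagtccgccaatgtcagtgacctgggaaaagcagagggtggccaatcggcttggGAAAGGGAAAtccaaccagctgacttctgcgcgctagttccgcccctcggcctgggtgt
No match overlapped another, and a match of letters is a description and not a binding site.

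Ratios between related genes within a library do not depend on how libraries are scaled, and none of the 4 compared passed. The ratio of Gabarapl1 to Map1lc3b counts was 1.22, 1.37 and 1.60 (lowest, median, highest) in IFNG libraries and 1.30, 1.60 and 1.82 in Control libraries. Its log2 difference, IFNG minus Control, was -0.21 (exact two-sided permutation p = 0.0671, adjusted over the 4 ratios 0.167). The ratio of Map1lc3b to Map1lc3a was 1.18, 1.32 and 1.71 in IFNG and 0.951, 1.22 and 1.42 in Control libraries, a log2 difference of 0.20 (exact permutation p = 0.115, adjusted 0.167). The ratio of Atg7 to Atg5 was 1.38, 1.79 and 2.28 in IFNG and 1.11, 1.499 and 1.85 in Control libraries, a log2 difference of 0.28 (exact permutation p = 0.126, adjusted 0.167). The ratio of Sqstm1 to Nbr1 was 2.52, 3.14 and 3.52 in IFNG and 2.01, 2.92 and 3.23 in Control libraries, a log2 difference of 0.12 (exact permutation p = 0.413, adjusted 0.413). The smallest p that the arrangements of 12 libraries allow is 0.00216, and the groups overlapped in all 4 ratios.

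**Figure D4:**
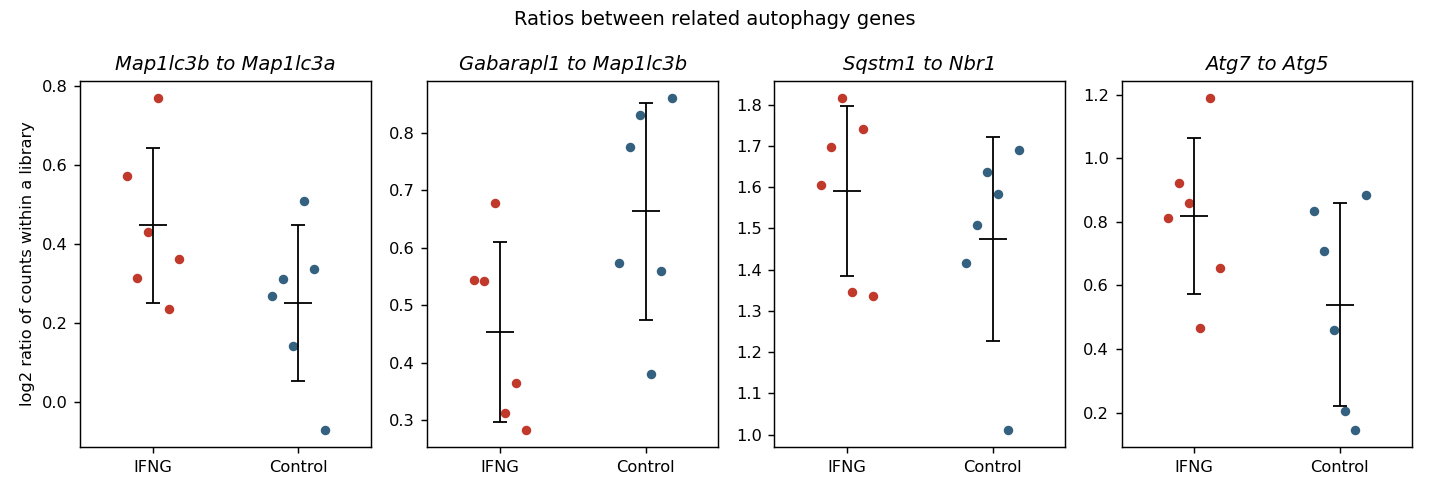
Log2 ratio of the counts of 2 genes within each library, for 4 pairs, in 6 IFNG and 6 Control libraries; points are libraries, bars are means ± SD, and the log2 axes do not start at 0. The groups overlap in every panel, with mean log2 ratios of 0.45 in IFNG against 0.66 in Control for Gabarapl1 to Map1lc3b.

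Of 13 upstream signalling genes 3 rose and 2 fell, beside 14.3% higher and 9.79% lower over all genes. Both lower calls, of Prkaa2 and Rheb, changed with the scaling and with single libraries, that of Rheb more often. On totals from which the genes that rose are removed, which raise fold changes by construction, 5 rose and 0 fell. Without IFNG 2 or IFNG 6, 3 rose and 0 fell. Tfeb, the transcription factor of lysosome and autophagy genes, was low at 7.89 ± 2.66 CPM in IFNG, against 3.50 ± 1.77 CPM in Control, and rose by 1.19 ± 0.30 in log2 terms (adjusted p = 0.00635). Tbk1, a kinase that phosphorylates cargo receptors and also serves innate immune signalling, averaged 56.2 ± 5.72 CPM in IFNG and 42.1 ± 3.801 CPM in Control and rose by 0.42 ± 0.096 (adjusted p = 0.00305). Foxo1, a transcription factor gene named after its values were seen because it was the third that rose, averaged 39.7 ± 6.69 CPM in IFNG and 29.6 ± 4.79 CPM in Control and rose by 0.42 ± 0.13 (adjusted p = 0.0228). That call was lost without Control 3 or IFNG 4 (adjusted p = 0.0579 and 0.0623). Prkaa2, a catalytic subunit gene of the energy sensor AMPK, averaged 60.7 ± 17.4 CPM in IFNG and 85.1 ± 6.13 CPM in Control and fell by 0.49 ± 0.15 (adjusted p = 0.0208). The Prkaa2 call was lost without IFNG 2 or IFNG 6 (adjusted p = 0.0587 and 0.0552) and on totals from which the genes that rose are removed (adjusted p = 0.0652). It held under 18 of 21 alternatives. Rheb, whose product activates mTORC1, averaged 121 ± 13.88 CPM in IFNG and 150.1 ± 23.5 CPM in Control and fell by 0.31 ± 0.10 (adjusted p = 0.0366), a call lost without any of 8 libraries (IFNG 1, 2, 4, 5 and 6 and Control 2, 4 and 6; adjusted p = 0.0540 to 0.114), and held under 10 of 21 alternatives. Tsc2, an inhibitor of that pathway, was the most abundant without a call, at 170 ± 13.8 CPM in IFNG, against 161 ± 16.5 CPM in Control (adjusted p = 0.557).

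At the last step 1 of 14 genes of autophagosome fusion rose and 0 fell (3 and 0 at an unadjusted p under 0.05; 1 and 0 in DESeq2 and in limma-voom), beside 14.3% higher over all genes. On totals from which the genes that rose are removed 3 rose (Vamp8 with Stx17 and Vps11, the last 2 named after their values were seen). With TMM scaling the gene was Vamp8, a fusion SNARE gene of low level, at 3.04 ± 1.19 CPM in IFNG, against 1.41 ± 0.84 CPM in Control (log2 fold change 1.12 ± 0.39, adjusted p = 0.0404). The call was lost without any of 8 libraries (IFNG 2, 4, 5 and 6 and Control 1, 2, 4 and 6; adjusted p = 0.0505 to 0.0870), and held under 12 of 21 alternatives. Without IFNG 5 the called gene was Stx17 (0.28, adjusted p = 0.0294) and not Vamp8. Rab7, the small GTPase gene of late endosomes, was the most abundant without a call, at 286 ± 27.5 CPM in IFNG, against 283 ± 27.9 CPM in Control.

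**Figure D5:**
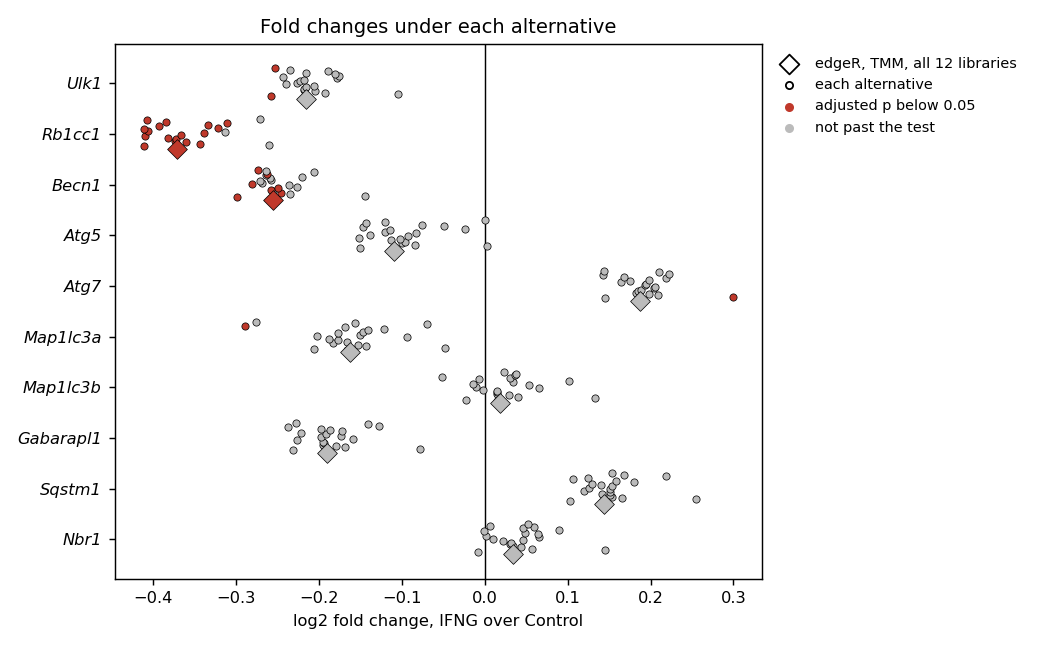
Log2 fold change, IFNG over Control, of each of the 10 genes in edgeR with TMM scaling on all 12 libraries (diamond) and under each of 21 alternatives (small points); red marks an adjusted p below 0.05 in that fit. Rb1cc1 passed under 18 of the 21 alternatives and Becn1 under 8, and both lay below 0 in all of them.

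Levels between genes can be compared only per length. With CPM divided by the length of the longest principal transcript in kilobases, the order in IFNG libraries was Sqstm1 (210.1 ± 13.2), Gabarapl1 (130.4 ± 17.1), Map1lc3a (116 ± 28.0), Map1lc3b (68.7 ± 10.8), Nbr1 (29.7 ± 2.98), Ulk1 (15.4 ± 1.64), Becn1 (12.2 ± 0.98), Rb1cc1 (9.29 ± 1.36), Atg7 (9.07 ± 0.97) and Atg5 (8.22 ± 0.71), each CPM per kilobase ± SD, n = 6. In this order the ranges of Gabarapl1 and Map1lc3a overlapped, as did those of neighbours from Becn1 down to Atg5. Control libraries gave the same order except for Atg5 (8.86 ± 1.56) above Atg7 (7.97 ± 0.55), which overlapped. There the ranges of Sqstm1 and Gabarapl1 and of Ulk1 and Becn1 also overlapped. With the joined length of all annotated exons, Sqstm1, Gabarapl1 and Map1lc3a overlapped one another in the order in both groups (128 ± 8.02, 118 ± 15.4 and 109 ± 26.3 in IFNG; 115 ± 15.0, 135 ± 13.03 and 122 ± 17.5 in Control), and Map1lc3b came out at 23.1 ± 3.63 in IFNG and 22.8 ± 3.06 in Control.

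Across the libraries, the profile of log2 CPM centred on its mean was compared with those of 10449 genes whose mean log2 CPM was 3 or more, for the genes past the test. Nearest to Rb1cc1 by root mean square difference over 12 libraries were Ube2q2 (0.0935) and Nkap (0.104), against a median of 0.332 over the genes compared. Nearest to Becn1 were Hdac6 (0.0654), Sh3bp1 (0.0710) and Zmiz2 (0.0742), against a median of 0.272. The log2 fold changes of these 5 genes lay between -0.35 and -0.21. Fold changes like those of Rb1cc1 and Becn1 follow from the choice, because the profiles span both groups.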

How the data were processed

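The authors deposited raw counts per gene, whole numbers for 43629 Ensembl identifiers in 12 libraries. STAR 2.4 and DESeq2, and the builds GRCm39 and mm10, are named without a role, per the submitters' processing notes. Counter, strand setting and annotation: not given in the sources used here. Symbols, positions and exon lengths were taken from GENCODE M21 (GRCm38), with a match for 42462 identifiers; the counting may have used another annotation.

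The comparison, IFNG over Control, used edgeR 4.0.16 under R 4.3.3: TMM factors, filterByExpr (15241 genes left), a two-sided quasi-likelihood F-test with no block, and a Benjamini-Hochberg threshold of 0.05. SE was taken from the fold change and F, as |log2 fold change|/√F. Log2 CPM uses a prior count of 2. Ratios of counts within a library were compared by exact permutation. Libraries of a group differed by at least 7.40 in chi-square per gene, so all 12 were kept. Counting precision follows from the depth: the 10 genes had at least 267 counts in a library. The test was also run on simulated counts in which a small set of genes was changed, as many raised as lowered. That run does not check how calls depend on the scaling when many genes change.

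The 10 genes and all lists were chosen with earlier results of these data known. All 10 are named. From each list of further genes up to 2 higher and 2 lower genes of smallest p, plus the most abundant uncalled gene, are named, and the 3 genes with the nearest profile are named for the 2 of the 10 with the smallest p, except 1 that is not reported here. Joined counts (such as the ULK complex genes) add listed genes to 1 or more of the 10. Alternatives were DESeq2 1.42.0, limma-voom (limma 3.58.1), other scalings and filters, a replicate block and each library left out, and, chosen after seeing the data, Control 4 and IFNG 5 left out together.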

Additional observations from a re-analysis of the deposited data

Results flagged for a closer look

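A check for a library that stands apart within its group of 6 was run on 68 groups of values, and chance marks about 1 in 20. None of the 10 genes and none of the 4 ratios was marked. Among the further autophagy genes 3 groups were. Rubcn had its lowest log2 CPM among IFNG libraries in IFNG 5, at 6.09 against 6.58 to 6.82 in the others. Prkaa2 had its lowest among Control libraries in Control 1, at 6.20 against 6.41 to 6.51. Rab7 had its highest among IFNG libraries in IFNG 3, at 8.41 against 8.06 to 8.17.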

How the results depend on the processing

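The number of the 10 genes called was 2 and moved between 0 and 3 as single libraries were left out. It was 0 without IFNG 2, 3 without IFNG 5 and 1 without any of 9 others. It was 1 with no filter on low counts and 1 with the replicate block (Rb1cc1 in both). On totals from which the genes that rose are removed it was also 1 (Atg7, higher), and the median over all genes moved by 0.11 in log2 fold change. Calls over all genes were 3676, of which 59.4% were higher, against 51.3% on plain library totals and 79.8% with the risen genes removed from the totals. Fold changes near 0 changed sign: on plain totals Map1lc3b was at -0.023, Nbr1 at -0.0086, Vmp1 at -0.038 and Rab7 at -0.023, and Atg5 was at 0.0024 with the risen genes removed. With single libraries left out, Map1lc3b ran from -0.051 to 0.10, Nbr1 from -0.00047 to 0.090, Vmp1 from -0.056 to 0.094 and Rab7 from -0.039 to 0.073. None of the 4 ratios passed under any of 15 alternatives. Deviations of same-numbered libraries had correlations from -0.00096 to 0.124, with 2 of 6 pairs over 0.1, against a median of -0.017 for other pairs. Of the 6 IFNG libraries 2 lay nearest to the Control library of their own number. Whether the numbers pair the samples is not settled by these values, and the main test took no pairing. With the replicate block 3677 genes were called. Among the 10 genes depth limits Atg5 most, with 267 to 602 counts in a library.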
